A study of Mus musculus with 15 samples.

Results

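A set of 33 marker genes of other myeloid cells was read in RNA of microglia sorted from mouse retinas. The genes were found by symbol in the deposited gene table, and all 33 were present among 35519 genes. By their use in the field, 15 mark classical monocytes, 3 mark patrolling monocytes, 9 mark border macrophages and 6 mark neutrophils. Microglia are the resident macrophages of the retina and brain and keep themselves by local division. Monocytes and neutrophils come from blood and enter nervous tissue through damaged or open vessels. Border macrophages live around vessels and in the coverings of the tissue. These cells share many surface proteins with microglia, so a sort for microglia has to keep them out by antigen.

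The sort took Fcrls+ CD11b+ Ly6c- cells from retinas of C57BL/6 mice at 12 weeks of age, 100 to 600 cells per retina, and each library is the RNA of 1 such sample. The groups were Apoe-/- with microbead injection (n = 4), Apoe-/- with sham injection (n = 4), wild type with microbead injection (n = 3) and wild type with sham injection (n = 4). Microbeads block fluid outflow and raise the pressure in the eye, and the Apoe-/- mice lack apolipoprotein E, a lipid carrier. The labels give no more on the microbead procedure, on how long after the injection cells were taken, or on the Apoe-/- allele, and the plate letter in the names of the deposited tables differs by genotype, so genotype and plate cannot be told apart. They number retinas and do not say that these came from separate mice, so p-values measure only the spread between these samples, which may be partly technical.

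The Ly6c antigens of the gate and the listed neutrophil genes other than Cxcr2 had at most 5 reads in any library of the 4 groups. Of the 33 markers, 26 had too few reads to be tested, and none of the 7 tested passed in any comparison. The markers with reads in every library were the leukocyte actin-binding gene Lsp1, the scavenger receptor gene Stab1, the matrix gene Fn1, the membrane protein gene Ms4a7 and the lectin receptor gene Clec12a. In wild-type retinas, Fn1 and Ms4a7 were higher in each of the 3 microbead libraries than in each of the 4 sham libraries, without passing the correction for all genes. Of the 6521 tested genes, 6.32% separated upward in the same way. In Apoe-/- retinas Fn1 and Ms4a7 overlapped between microbead and sham libraries. Wild-type microbead library 2, the largest library after scaling, held more reads of Ccr2, Cd44, Napsa, F13a1 and S100a6 than any other library.

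The libraries held 458111 to 714670 reads assigned to genes. Apoe, the deleted gene, had 0 to 6 reads in the 8 Apoe-/- libraries and 667 to 15125 reads in the 7 wild-type libraries. All 15 listed microglia markers were read at a mean of more than 3.33 TPM (a level per transcript length with an equal total in each library), and their median was 97.5 TPM, against 0.80 TPM for the 33 markers. The value of 3.33 TPM is the 95th percentile of 1497 olfactory, vomeronasal and taste receptor genes, which serve here as silent genes and whose median was 0.22 TPM. No pair of libraries within a group was close enough to be the same library deposited again (chi-square at least 2.21 for each degree of freedom). Sizes scaled by TMM (the trimmed mean of M values) averaged 501509 in Apoe-/- microbead, 400925 in Apoe-/- sham, 813474 in wild-type microbead and 632451 in wild-type sham libraries, and levels in CPM are reads relative to these sizes.

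The Ly6c antibody of the gate binds the products of Ly6c1 and Ly6c2, neighbouring copies on chromosome 15 that are GPI-anchored surface proteins. Ly6c2 is abundant on classical monocytes and Ly6c1 on blood vessels. Their coding sequences are shown because they are so alike that a read can often be placed on either gene. They are on the minus strand at chr15:75045402-75048511 (Ly6c1-201) and chr15:75108543-75111667 (Ly6c2-201) of mm10, spliced, from GENCODE release M21, of which the first 300 bases are printed. Capitals mark the 7 bases in this stretch that differ between the copies.
Ly6c1-201: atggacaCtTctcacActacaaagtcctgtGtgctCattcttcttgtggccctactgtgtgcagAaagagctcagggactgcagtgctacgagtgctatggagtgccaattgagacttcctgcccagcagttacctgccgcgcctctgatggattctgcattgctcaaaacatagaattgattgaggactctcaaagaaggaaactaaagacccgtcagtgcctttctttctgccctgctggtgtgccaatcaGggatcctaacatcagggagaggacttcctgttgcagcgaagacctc
Ly6c2-201: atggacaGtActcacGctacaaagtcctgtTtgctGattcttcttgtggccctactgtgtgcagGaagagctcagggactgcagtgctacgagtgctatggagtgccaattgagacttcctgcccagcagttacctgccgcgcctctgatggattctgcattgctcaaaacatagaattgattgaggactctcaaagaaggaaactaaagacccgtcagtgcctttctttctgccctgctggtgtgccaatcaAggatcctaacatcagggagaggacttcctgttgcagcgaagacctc
The whole coding sequences are 396 bases long and 97.73% identical with 9 differing bases, and the longest stretch without a difference is 188 bases. The reads of both genes are therefore also given as a sum.

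Ly6c1 and Ly6c2 together had 0, 0, 0 and 0 reads in the Apoe-/- microbead libraries. They had 1, 1, 5 and 2 reads in the Apoe-/- sham libraries, 2, 1 and 1 reads in the wild-type microbead libraries, and 1, 1, 0 and 2 reads in the wild-type sham libraries. That is 17 reads in 10 of 15 libraries, at a mean of 0.32 TPM, a level above that of 63.3% of the silent receptor genes. Of the Ly6c2 reads, 94.0% were placed on Ly6c2-202, a model annotated as a retained intron, and 1 read of each gene fell on a protein-coding model. The antigens that the gate required were read in every library. Fcrls, an Fc receptor-like gene of microglia, had 36 to 157 reads in Apoe-/- microbead, 29 to 88 in Apoe-/- sham, 118 to 248 in wild-type microbead and 100 to 182 in wild-type sham libraries. Itgam, which encodes CD11b, had 34 to 230 reads. Of other cells the gate could hold, none of 12 lymphocyte, 12 endothelial, 10 pericyte and fibroblast or 5 red blood cell genes averaged more than 3.33 TPM. Of 15 rod photoreceptor genes 9 did, as did the dendritic cell genes Batf3 and Fscn1 and the glial genes Glul and Slc1a3. Apoe, also on the glial list, did so through the wild-type libraries, at a mean of 452 TPM in sham and 5545 TPM in microbead libraries. Which cells the Apoe reads came from was not tested. In bulk RNA, fewer cells of a type and less RNA per cell cannot be told apart, so read counts of markers give no number of cells.

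**Figure D1:**
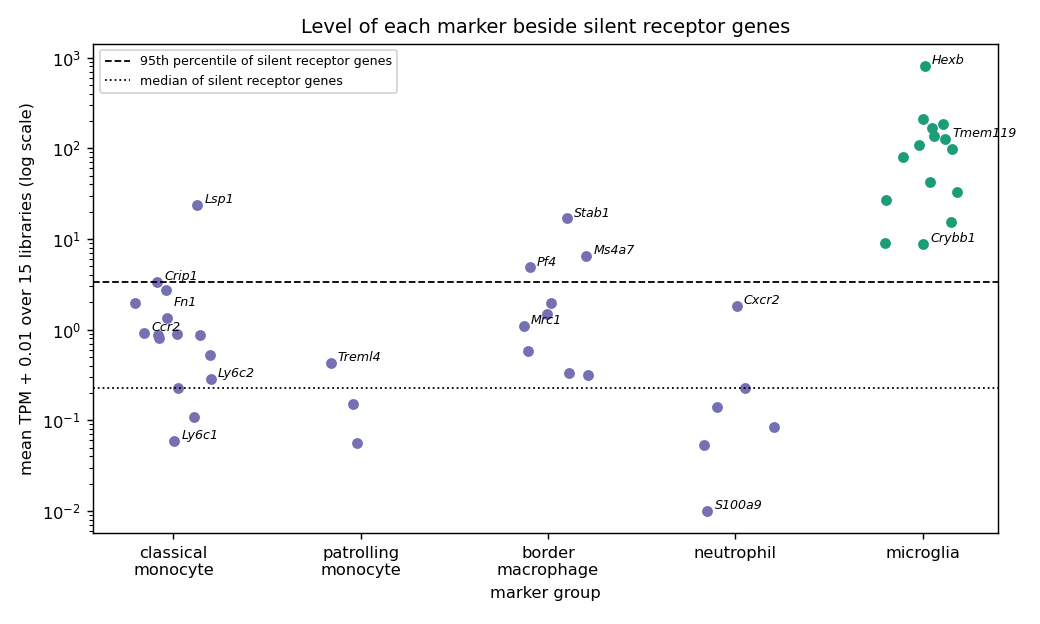
Each point is 1 gene, with its mean TPM + 0.01 over the 15 libraries on a log axis, for the 4 groups of listed markers and for 15 microglia markers. The dashed line is the 95th percentile (3.33 TPM) and the dotted line the median (0.22 TPM) of 1497 silent receptor genes. Only Lsp1, Stab1, Ms4a7, Pf4 and Crip1 of the 33 markers lie above the dashed line, and all 15 microglia markers do.

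Neutrophil markers other than Cxcr2 had at most 3 reads each over all libraries. S100a9, a calprotectin subunit abundant in neutrophil cytoplasm, had 0 reads in all 15 libraries, 0 of 8514331 gene reads, which allows a share of up to 3.52e-05% when 3 reads are taken as the limit. Its partner S100a8 had 1 read, in wild-type microbead library 2. Ly6g, the surface antigen that defines mouse neutrophils, had 1 read, in Apoe-/- sham library 4. Retnlg, a resistin-like secreted protein, had 1 read, in Apoe-/- microbead library 4, and Mmp9, a gelatinase of neutrophil granules, had 1 read in each of 3 wild-type sham libraries. Of 20 further neutrophil genes, among them the granule genes Camp, Ltf, Ngp, Mpo and Elane, 16 had at most 10 reads over all libraries, and 3 of these had none. The remaining 4 are named after their values were seen. Clec4e had 15 reads, Trem1 had 16 and Hdc had 40 over all libraries. Csf3r, the receptor for granulocyte colony-stimulating factor, had 36 to 260 reads in each library. The limit for S100a9 is for the 15 libraries pooled and covers counting error only, as no molecular identifiers were used to count molecules. In a single library 3 reads were worth 3.00 to 13.3 CPM.

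Cxcr2, a chemokine receptor that guides neutrophils, was the only listed neutrophil gene read widely, with 147 reads in 14 libraries. It had 14, 4, 11 and 0 reads in Apoe-/- microbead libraries, 7, 19, 1 and 10 in Apoe-/- sham libraries, 7, 5 and 13 in wild-type microbead libraries, and 15, 13, 12 and 16 in wild-type sham libraries. All were placed on 1 protein-coding model, Cxcr2-202. The wild-type sham libraries were alike and the Apoe-/- libraries spread from none to the highest of all. Its mean of 1.80 TPM lay above 91.6% of the silent receptor genes and below their 95th percentile. Its largest value, 84.4 CPM in Apoe-/- sham library 2, stands on 19 reads in the library with the smallest TMM-scaled size (225227), where silent receptor genes took 2.44% of reads, against 0.668 to 2.35% in the other 14 libraries. Their part in the value was not tested.

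Patrolling monocyte markers were at or near single reads. Ace, the angiotensin-converting enzyme, had 5 reads in all. Treml4, a receptor of patrolling monocytes, also had 5, of which 3 were in wild-type microbead library 3. Spn, the cell-surface sialoprotein CD43, had 11 reads in 10 libraries with at most 2 in any. None of the 3 passed the filter on low counts, and none lay above the 95th percentile of the silent receptor genes.

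**Figure D2:**
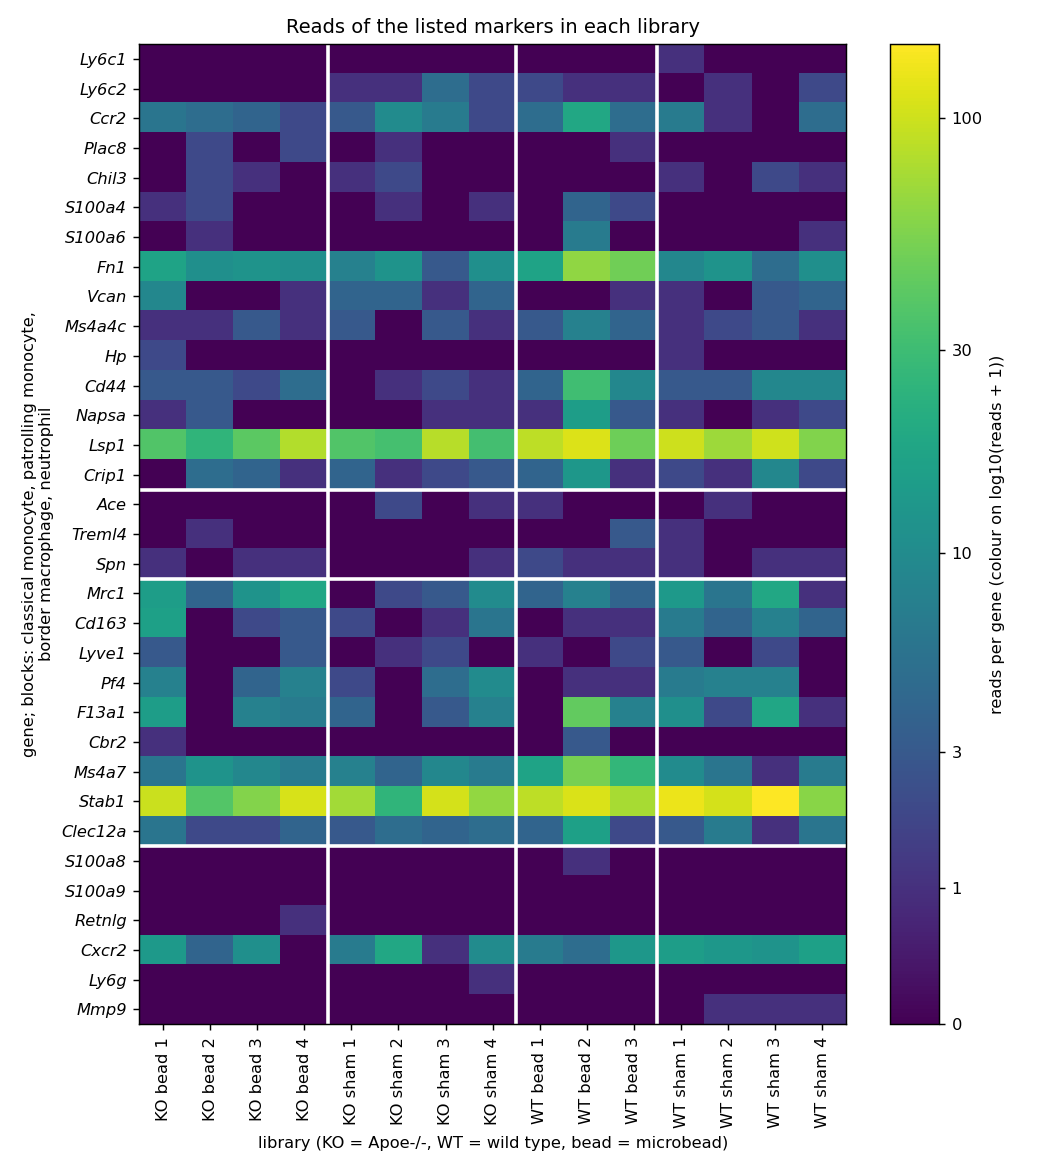
Colour gives the reads of each listed marker (rows) in each library (columns) on a log10(reads + 1) scale, with white lines between marker groups and between sample groups. The neutrophil rows other than Cxcr2 hold 0 or 1 read per library, Lsp1 and Stab1 hold at least 25 in every library, and wild-type microbead library 2 is bright for Ccr2, Cd44, Napsa, S100a6 and F13a1.

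Among classical monocyte markers, Lsp1 differed from the rest in level. Lsp1 binds actin in leukocytes of many kinds. It had 37, 25, 41 and 81 reads in Apoe-/- microbead, 37, 33, 85 and 32 in Apoe-/- sham, 88, 111 and 48 in wild-type microbead, and 100, 70, 101 and 56 in wild-type sham libraries. Its level was 87.7 ± 26.0 CPM in Apoe-/- microbead and 116 ± 35.5 CPM in Apoe-/- sham libraries (SD, n = 4 each), and 101 ± 32.9 CPM in wild-type microbead (n = 3) and 129 ± 15.3 CPM in wild-type sham libraries (n = 4). Microbead and sham libraries overlapped in both genotypes. Its mean of 23.8 TPM lay above 99.9% of the silent receptor genes. Lsp1 and Stab1 together held 2223 of the 3655 marker reads, 60.8%, and the other 31 genes shared 1432.

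Ccr2, the chemokine receptor that draws classical monocytes into tissue, is the marker that most directly separates them from microglia. It had 6, 5, 4 and 2 reads in Apoe-/- microbead libraries, 3, 10, 7 and 2 in Apoe-/- sham libraries, 5, 19 and 5 in wild-type microbead libraries, and 7, 1, 0 and 5 in wild-type sham libraries. Only wild-type microbead library 2 and Apoe-/- sham library 2 held 10 reads or more. As levels these were 19.0 and 44.4 CPM, the latter in the library with the smallest TMM-scaled size. Ccr2 did not pass the filter on low counts. Its mean level of 0.91 TPM lay above 84.6% of the silent receptor genes.

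The other secreted and signalling genes of classical monocytes were read less. Plac8, a small protein of classical monocytes, had 6 reads over all libraries, and Chil3, a chitinase-like secreted protein, had 10. Hp, which encodes the haemoglobin-binding plasma protein haptoglobin, had 3. The calcium-binding genes S100a4 and S100a6 had 11 and 9 reads, of which 4 and 7 were in wild-type microbead library 2. Vcan, which encodes the matrix proteoglycan versican, had 32 reads, with 9 in Apoe-/- microbead library 1 and at most 4 in any other library. Crip1, a LIM-domain protein, had 52 reads with 13 in wild-type microbead library 2, and at 3.36 TPM it lay just over the 95th percentile of the silent receptor genes. S100a4 shares 156 exon bases with the gene model Gm42674 on the same strand, so its reads may be split between them.

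Ms4a4c, a membrane protein of the same family as Ms4a7, had 1, 1, 3 and 1 reads in Apoe-/- microbead, 3, 0, 3 and 1 in Apoe-/- sham, 3, 8 and 4 in wild-type microbead, and 1, 2, 3 and 1 in wild-type sham libraries. In wild type the microbead libraries (4.35 to 7.998 CPM) did not overlap the sham libraries (1.52 to 3.60 CPM). Such a separation upward was seen in 6.32% of the 6521 tested genes and in 0.954% of the 21591 detected genes that were not tested. The levels are close to what 3 reads are worth in a library, 3.00 to 13.3 CPM, and the gene was not tested.

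Fn1 encodes fibronectin, a matrix glycoprotein that monocytes and macrophages secrete. The gene (ENSMUSG00000026193.15) lies at chr1:71585520-71653200 on the minus strand (mm10). It had 17, 11, 12 and 11 reads in Apoe-/- microbead libraries and 8, 12, 3 and 11 in Apoe-/- sham libraries, and these overlapped. It had 17, 63 and 49 reads in wild-type microbead libraries and 9, 12, 5 and 11 in wild-type sham libraries. As levels these were 51.0 ± 22.9 CPM (24.6 to 65.4) in wild-type microbead and 16.1 ± 7.93 CPM (5.99 to 23.7) in wild-type sham libraries (SD, n = 3 and 4). The lowest microbead library lay just above the highest sham library, a separation seen upward in 6.32% of the tested genes.

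Ms4a7, a membrane protein of mature macrophages that is used to tell border and monocyte-derived macrophages from microglia, is ENSMUSG00000024672.11 at chr19:11321039-11336146 on the minus strand (mm10). It had 6, 12, 9 and 7 reads in Apoe-/- microbead and 8, 4, 9 and 7 in Apoe-/- sham libraries, again overlapping. It had 17, 52 and 26 reads in wild-type microbead and 10, 6, 1 and 7 in wild-type sham libraries. The wild-type microbead libraries lay at 24.6 to 52.0 CPM and the wild-type sham libraries at 1.20 to 15.2 CPM, so they did not overlap. An upward separation of these groups was seen in 6.32% of the tested genes. Ms4a7 averaged 37.1 ± 13.8 CPM in wild-type microbead and 10.5 ± 6.56 CPM in wild-type sham libraries (SD, n = 3 and 4). In TPM, which corrects for transcript length, it averaged 21.2 ± 11.8 in wild-type microbead and 2.04 ± 1.59 in wild-type sham libraries. The gap is wider in TPM, a scale on which the median log2 difference of all tested genes was also positive, 0.58 with a pseudocount of 1 and 0.74 with 0.1, beside -0.011 in the count fit.

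The transcript tables show which models of these genes were read. Reads on protein-coding models of Fn1 were 0, 10, 1 and 0 in Apoe-/- microbead and 0, 0, 0 and 1 in Apoe-/- sham libraries. They were 2, 47 and 30 in wild-type microbead and 1, 0, 1 and 0 in wild-type sham libraries. The retained-intron and other Fn1 models held 2 to 19 reads in all 15 libraries, 3 to 12 in Apoe-/- sham and 4 to 12 in wild-type sham. The protein-coding reads of Fn1 were thus above 2 in only 3 libraries, wild-type microbead 2 and 3 and Apoe-/- microbead 2.

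For Ms4a7 the protein-coding models held 3, 6, 4 and 3 reads in Apoe-/- microbead and 3, 0, 2 and 3 in Apoe-/- sham libraries. They held 13, 49 and 18 reads in wild-type microbead and 10, 2, 1 and 0 in wild-type sham libraries. The other models held at most 9 reads in any library. The split of a gene's reads between its models is Salmon's estimate and carries its own error. Fn1 also shares 197 exon bases with a gene model on the opposite strand, and no source here states that strand was used in counting.

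**Figure D3:**
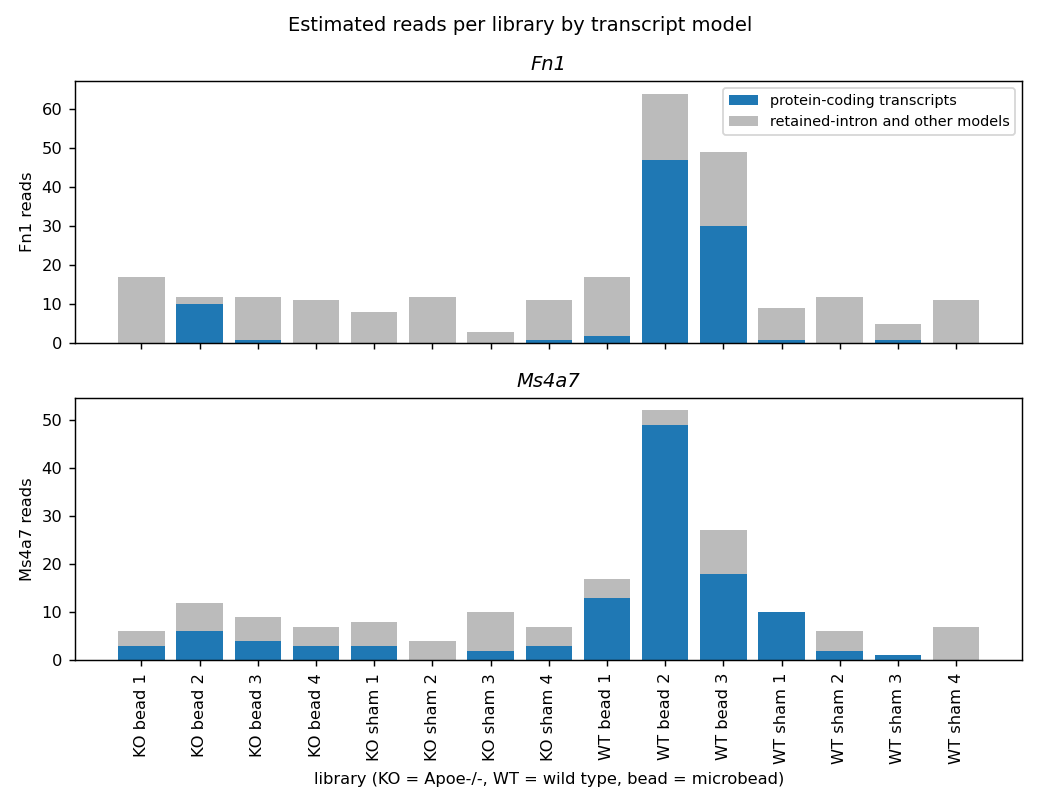
Bars give the estimated reads of Fn1 (top) and Ms4a7 (bottom) in each library, split into protein-coding transcripts (blue) and retained-intron and other models (grey). Protein-coding Fn1 reads reach 47 and 30 in wild-type microbead libraries 2 and 3 and 10 in Apoe-/- microbead library 2, and are 0 to 2 elsewhere.

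Several border macrophage markers other than Ms4a7 and Stab1 differed widely in reads between libraries of the same group. Mrc1, the mannose receptor CD206, had 15, 4, 12 and 18 reads in Apoe-/- microbead libraries, 0, 2, 3 and 10 in Apoe-/- sham libraries, 4, 8 and 4 in wild-type microbead libraries, and 14, 6, 19 and 1 in wild-type sham libraries. At 10.9 to 31.1 CPM the Apoe-/- microbead libraries lay above the wild-type microbead libraries at 5.34 to 7.998 CPM, without overlap. Of all tested genes, 3.14% separated these groups upward and 3.7% downward. The sham libraries of both genotypes covered nearly the whole range.

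Cd163, the scavenger receptor for haptoglobin-bound haemoglobin, had 16, 0, 2 and 3 reads in Apoe-/- microbead, 2, 0, 1 and 6 in Apoe-/- sham, 0, 1 and 1 in wild-type microbead, and 7, 4, 8 and 4 in wild-type sham libraries. Pf4, a chemokine of platelets and of border macrophages, had 8, 0, 4 and 8 reads in Apoe-/- microbead, 2, 0, 5 and 10 in Apoe-/- sham, 0, 1 and 1 in wild-type microbead, and 7, 8, 8 and 0 in wild-type sham libraries. In wild type the microbead libraries held fewer Cd163 reads than any sham library, while Pf4 was at 0 in 1 library of each of these groups. A separation downward was seen in 4.22% of the tested genes and in 1.23% of the detected genes that were not tested. Neither gene passed the filter, so neither was tested. Lyve1, a hyaluronan receptor, had 17 reads, and Cbr2, a carbonyl reductase, had 4, of which 3 were in wild-type microbead library 2.

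Summed over Mrc1, Cd163, Lyve1, Pf4, F13a1 and Cbr2, border macrophage reads numbered 58, 4, 26 and 39 in Apoe-/- microbead libraries. They numbered 8, 3, 14 and 34 in Apoe-/- sham, 5, 56 and 16 in wild-type microbead, and 42, 20, 55 and 6 in wild-type sham libraries. Every group held a library with fewer than 10 and a library with more than 30 of these reads. In wild-type microbead library 2, F13a1, which encodes a subunit of a clot-stabilising transglutaminase, gave 43 of the 56 reads.

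**Figure D4:**
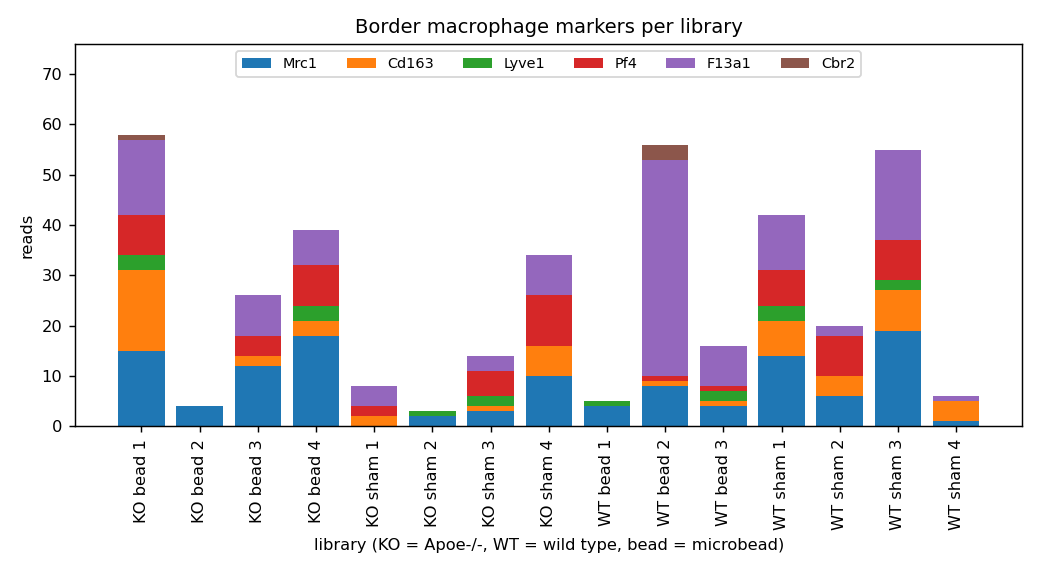
Stacked bars give the reads of 6 border macrophage markers in each of the 15 libraries. Totals run from 3 to 58 reads and differ between libraries of the same group, and F13a1 makes up 43 of 56 reads in wild-type microbead library 2.

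Stab1, a scavenger receptor of tissue macrophages, was the most read of all 33 markers, with 1278 reads. It had 98, 38, 57 and 108 reads in Apoe-/- microbead, 73, 25, 105 and 64 in Apoe-/- sham, 89, 110 and 76 in wild-type microbead, and 125, 105, 146 and 59 in wild-type sham libraries. Its level was 146 ± 47.5 CPM in Apoe-/- microbead and 159 ± 32.4 CPM in Apoe-/- sham libraries (SD, n = 4 each), and 113 ± 14.1 CPM in wild-type microbead (n = 3) and 169 ± 28.6 CPM in wild-type sham libraries (n = 4). Wild-type microbead libraries, at 101 to 129 CPM, narrowly overlapped wild-type sham libraries, at 127 to 190 CPM. Of its reads, 37.8% fell on protein-coding models, and it shares 112 exon bases with Nt5dc2 on the opposite strand. Clec12a, an inhibitory lectin receptor of myeloid cells, had 1 to 16 reads in every library and 70 in all, of which 16 were in wild-type microbead library 2.

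The test used edgeR's quasi-likelihood F-test on 6521 genes, with p-values adjusted by Benjamini-Hochberg over all of them. Of the 33 markers, 7 passed the filter on low counts (Fn1, Ms4a7, Stab1, Lsp1, Mrc1, F13a1 and Cxcr2), and 26 were not tested. A gene can pass that filter through the group in which it is high. Ms4a7 had more than 10 reads only in the 3 wild-type microbead libraries and in Apoe-/- microbead library 2. It thus entered the test through the group in which it is high. Its p-value and separation in wild type are not separate from that. For wild-type microbead against wild-type sham, 0 of the 7 passed, where 13 of 6521 genes did, 0.199%, all of them higher. At an unadjusted p under 0.05, 2 of the 7 were higher and 0 were lower, where 7.87% of all genes passed in either direction. DESeq2 and limma voom also called 0 of the 7.

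The log2 fold change of Ms4a7 was 1.89 with an SE of 0.50 (edgeR adjusted p = 0.18), and it was higher in 3 of 3 microbead libraries than in any sham library. Fn1 had 1.73 (SE 0.51, adjusted p = 0.327), also with 3 of 3 libraries above all sham libraries. Such a separation was seen in 6.32% of all tested genes upward and in 4.22% downward. The other named members were Stab1 at -0.58 (adjusted p = 0.651), Mrc1 at -1.17 (0.724), Cxcr2 at -1.11 (0.766) and Lsp1 at -0.35 (0.81). The median of the 7 was -0.35, beside -0.011 for all genes.

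The 2 genes depended on single choices. With no filter on low counts, where 28112 genes entered, edgeR gave adjusted p = 0.0183 for Ms4a7 and 0.0136 for Fn1. On log2(TPM + 1), limma gave adjusted p = 0.00485 for Ms4a7 with a log2 difference of 2.86, while the median of all genes was 0.58 on that scale. Without wild-type microbead library 2 the edgeR fold changes were 1.55 for Ms4a7 and 1.54 for Fn1, each with an adjusted p of 1. Over all alternatives the adjusted p ran from 0.00485 to 1 for Ms4a7 and from 0.0136 to 1 for Fn1.

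Rod photoreceptor RNA was lower on balance in this comparison, with ranges that overlapped. The 15 rod genes summed to 104 to 668 CPM in wild-type microbead and 592 to 2710 CPM in wild-type sham libraries, with no gene at 0 reads overall. Of 14 tested rod genes, 0 passed the test and all 14 had a negative log2 fold change, with a median of -2.07 and 10 at an unadjusted p under 0.05. Their part in the results for Fn1 and Ms4a7 was not tested. Of 20 further monocyte genes, 5 were tested and only Lyz2, the lysozyme gene of myeloid cells including microglia, passed. Lyz2 had 644, 2333 and 655 reads in wild-type microbead and 164, 89, 218 and 80 in wild-type sham libraries, 2.72 higher on the log2 scale (SE 0.46, edgeR adjusted p = 0.0102). Wild-type microbead library 2 held 44.6% of all Lyz2 reads. Without it the call was lost, at 2.10 (adjusted p = 0.141), and it was also lost without any 1 of the 4 wild-type sham libraries (adjusted p = 0.0516 to 0.0735). Over all alternatives the adjusted p ran from 4.13e-12 to 0.141. None of 7 tested genes among 20 further border macrophage genes passed. In the other comparisons no gene of the further myeloid lists passed.

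For Apoe-/- microbead against Apoe-/- sham, 0 of the 7 markers and 0 of 6521 genes (0%) passed the edgeR test. At an unadjusted p under 0.05, 0 of the 7 and 6.95% of all genes passed. DESeq2 and limma voom called 0 genes as well. The log2 fold changes were 1.28 for Mrc1 (SE 0.69, adjusted p = 0.711), -0.39 for Lsp1 (0.766), -0.88 for Cxcr2 (0.814), 0.64 for F13a1 (0.904), -0.12 for Stab1 (0.943) and 0.14 for Fn1 (0.966). For Ms4a7 it was 0.0060, with a 95% interval of -1.14 to 1.15. None of the 7 separated the groups, where 1.55% of all genes did upward and 0.951% downward.

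The difference between the 2 responses, Apoe-/- minus wild type, was tested directly. It passed for 0 of the 7 markers and 0 of 6521 genes (0%), and at an unadjusted p under 0.05 for 3 of the 7 and 3.39% of all genes. DESeq2 and limma voom called 0 genes there. The difference was -1.88 for Ms4a7 (95% interval -3.40 to -0.37), 2.45 for Mrc1 (0.36 to 4.54) and -1.59 for Fn1 (-3.15 to -0.016), each with an adjusted p of 1.00 in edgeR. It was 0.45 for Stab1, 0.23 for Cxcr2 and -0.037 for Lsp1. Rod photoreceptor RNA moved with this difference, with 14 of 14 tested rod genes positive, 11 at an unadjusted p under 0.05, 0 passing and a median of 2.73. In the Apoe-/- microbead against sham comparison 14 of 14 were positive as well (median 0.83). The summed rod level was 188 to 2674 CPM in Apoe-/- microbead and 158 to 1665 CPM in Apoe-/- sham libraries. The part of rod RNA in these values was not tested. The adjusted values do not show that the responses differ, and the intervals do not show that they were alike.

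For Apoe-/- sham against wild-type sham, 0 of the 7 markers passed, where 1 gene, Apoe itself, did (0.0153%). At an unadjusted p under 0.05 it was 0 of the 7 and 8.68% of all genes. The largest difference was for Ms4a7, at 0.81 on the log2 scale (SE 0.54, adjusted p = 0.687). Its levels were 17.7 ± 1.45 CPM in Apoe-/- sham and 10.5 ± 6.56 CPM in wild-type sham libraries (SD, n = 4 each), which did not overlap. Such a separation was seen upward in 1.2% and downward in 2.39% of all tested genes. The lowest Apoe-/- sham library (15.7 CPM) lay just above the highest wild-type sham library (15.2 CPM). Protein-coding models of Ms4a7 averaged 4.61 CPM in Apoe-/- sham and 4.97 CPM in wild-type sham libraries. Its other models averaged 13.5 and 5.51 CPM. Fn1 (0.61), Mrc1 (-0.61), Lsp1 (-0.15), Cxcr2 (0.27) and F13a1 (-0.32) had adjusted p of 0.79 to 0.959.

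For Apoe-/- microbead against wild-type microbead, 0 of the 7 passed, where 3 genes did (0.046%), and at an unadjusted p under 0.05 it was 2 of the 7 and 7.19% of all genes. Mrc1 had 23.3 ± 8.86 CPM in Apoe-/- and 6.38 ± 1.42 CPM in wild type (SD, n = 4 and 3), a log2 difference of 1.84 (SE 0.72, adjusted p = 0.626). Ms4a7 had 18.4 ± 9.99 CPM in Apoe-/- and 37.1 ± 13.8 CPM in wild type, a log2 difference of -1.08 (SE 0.48, adjusted p = 0.635). Fn1 was at -0.98 (0.699), Stab1 at 0.37 (0.801), Lsp1 at -0.19 (0.916) and Cxcr2 at 0.49 (0.925). DESeq2 gave no adjusted p for Mrc1, Ms4a7, Fn1, Cxcr2 and F13a1 in this comparison. Rod genes were positive in 14 of 14 here too, with a median of 1.88, and their part in these values was not tested. Only Mrc1 separated the groups, where 3.14% of all genes did upward and 3.7% downward. On log2(TPM + 1), Ms4a7 passed with limma (-2.24, adjusted p = 0.0356), on a scale where the median of all genes was -0.73. This comparison shares its wild-type microbead libraries with the wild-type comparison and its result is not separate from it.

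Wild-type microbead library 2 held more markers above background than any of the other 14 libraries. In it 15 of the 33 markers lay above the 95th percentile of that library's silent receptor genes, against 2 to 6 markers in each other library. That percentile was 2.17 TPM in this library and 2.12 to 5.38 TPM in the others. The share of all genes above it was not counted, so the 15 cannot be read as particular to the markers. Of the 33 markers, 8 had their highest CPM there, as did 4.51% of 28112 detected genes and 9.94% of the tested genes. Apoe-/- microbead library 1 had 6 such markers (7.92% of detected and 4.94% of tested genes). Apoe-/- sham library 2 had 5 (21.8% of detected and 19.4% of tested genes). The summed level did not set wild-type microbead library 2 apart. The 31 markers other than Lsp1 and Stab1 summed to 291.9 CPM in it, beside 293.0 CPM in Apoe-/- sham library 2, 259 CPM in Apoe-/- microbead library 1 and 90.5 to 222 CPM in the other 12 libraries.

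The markers with their highest CPM in wild-type microbead library 2 differed in how far their reads were spread. Cd44, a hyaluronan receptor, had 31 of its 85 reads there and others in 13 more libraries, with 31.0 CPM in this library and 19.4 CPM in the next, wild-type sham library 4. Napsa, the aspartic protease napsin A, had 15 of 29 reads there, with 1 and 3 in the other wild-type microbead libraries. S100a6 had 7 of 9 reads there, Cbr2 had 3 of 4, and S100a8 had its only read there. The border macrophage marker F13a1 had 43 of 128 there and the rest in 11 other libraries. Clec12a, whose highest CPM lay in Apoe-/- sham library 2, had 15 reads on protein-coding models in wild-type microbead library 2 and at most 3 in any other library. Napsa and F13a1 share 378 and 60 exon bases with models on the opposite strand.

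Of the 20 further monocyte genes, 7 had their highest CPM in this library, where 4.51% of 28112 detected genes did. Among the tested genes that share was 9.94%. Of these 7 monocyte genes, 2 had most of their reads there, named after their values were seen. Anxa1, which encodes the phospholipid-binding protein annexin A1, had 15 of its 18 reads there, and Ahnak, a large scaffold protein, had 30 of 50. The other 5 of these 7 had most of their reads elsewhere, with 20.6% of Tgfbi, 20.7% of Ifitm3, 28.8% of Itgal, 31.3% of Nr4a1 and 44.6% of Lyz2 reads in this library. Of the 20 further border macrophage genes, Mgl2, a lectin of some macrophages and dendritic cells, had 13 of 24 reads there. It too was named after its values were seen. These 20 genes together were at 261 CPM in this library, within the range of the other libraries (225 to 363 CPM). Without Lsp1, the classical monocyte markers summed to 23 to 40 reads in Apoe-/- microbead and 24 to 33 in Apoe-/- sham libraries, to 36, 161 and 76 in the wild-type microbead libraries and to 27, 20, 32 and 38 in the wild-type sham libraries. As levels, the sums were 35.8 to 95.6 CPM in Apoe-/- microbead and 41.8 to 146.5 CPM in Apoe-/- sham libraries, 52.1, 161.0 and 101.4 CPM in wild-type microbead and 34.9 to 81.7 CPM in wild-type sham libraries. On that scale Apoe-/- sham library 2 lay close to wild-type microbead library 2. Library 2 also had the largest TMM-scaled size of all (1000260) and the smallest share of silent receptor reads (0.668%), and the part of these in the counts was not tested. Its microglia markers summed to 12636 CPM, within the range of the other 14 libraries (8476 to 16866 CPM), and of the neutrophil markers S100a9, Ly6g, Retnlg and Mmp9 were at 0 reads, S100a8 at 1 and Cxcr2 at 5 in it.

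**Figure D5:**
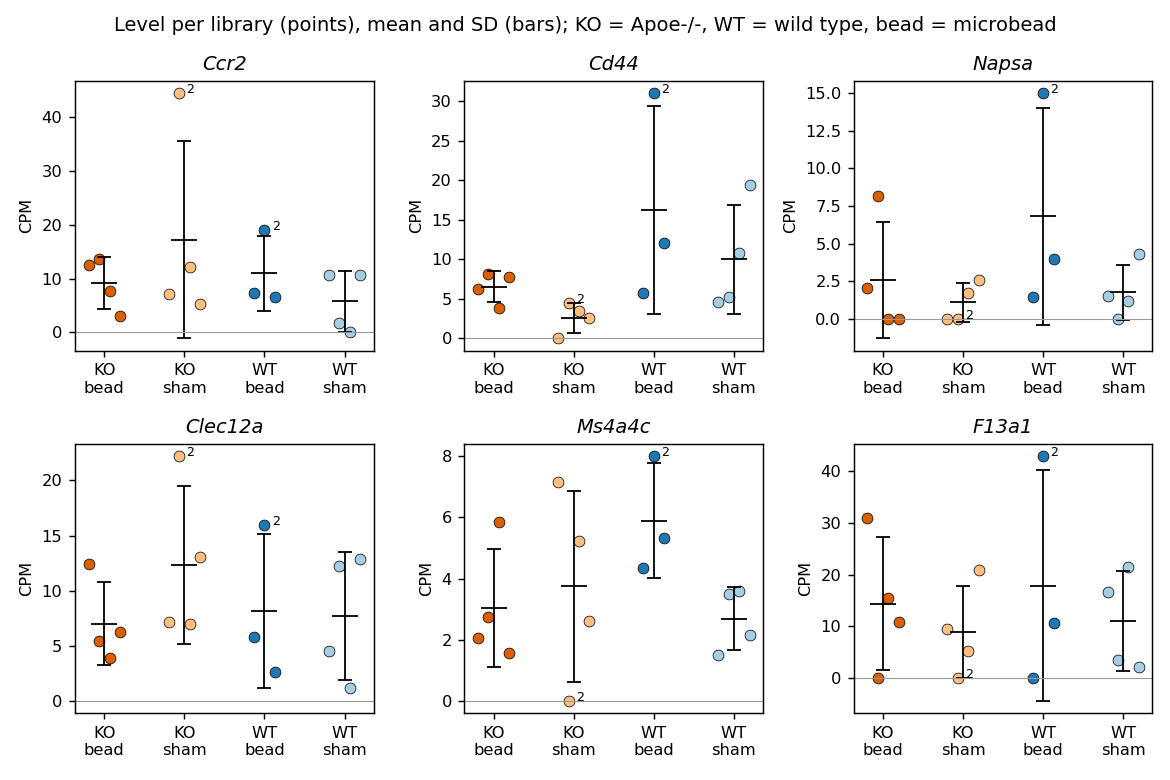
Points are the CPM of 6 markers in each library, with the group mean and SD as bars, for Apoe-/- microbead, Apoe-/- sham, wild-type microbead and wild-type sham libraries. Points marked 2 are Apoe-/- sham library 2 and wild-type microbead library 2, and wild-type microbead library 2 holds the highest value of Cd44, Napsa, Ms4a4c and F13a1.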

How the data were processed

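RNA of sorted retinal microglia was sequenced in 15 libraries. The header of the whole-series table names SMART-Seq2. The authors deposited, per the file headers, Salmon tables of estimated counts, TPM and effective length in bases (Salmon's own quantity, used for length offsets alone) for each transcript, and a gene TPM table. The submitters' processing notes list mm10, DESeq2 1.30.1, Salmon 1.4.0 and R 4.0.3. How reads were filtered and whether Salmon used strand is not given in the sources used here.

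GENCODE release M21 placed 116023 of 116945 transcripts on genes, and left 0.217 to 0.354% of reads unassigned and out of library sizes. The estimated counts of a gene's transcripts were added and rounded to whole numbers. Gene TPM equalled the deposited table in 99.7% of values within a relative tolerance of 0.001.

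Counts were fitted with edgeR 4.0.16 in R 4.3.3: TMM, filterByExpr, 1 model of 15 libraries in 4 groups, quasi-likelihood F-test, two-sided, Benjamini-Hochberg over 6521 genes, threshold 0.05. The common biological coefficient of variation was 34.4%. The fit was tested on simulated data for wild-type microbead against sham, with this common variation for every gene. It called 12% of 2-fold and 82% of 4-fold changes, with 7 false calls. The changed genes were drawn only from levels above the mean of Ms4a7 (19.8 CPM), so smaller counts were not covered. DESeq2 1.42.0 and limma 3.58.1 were alternatives, as were other filters, scalings, a replicate block, leaving out each library and counting protein-coding transcripts only (chosen after seeing the data). The 6 members with the smallest unadjusted p were named in each contrast; other genes are described by their reads. The 33 members and the further lists were chosen with earlier results of these data known. CPM and TPM levels are means ± SD over libraries. Library depth was 458111 to 714670 gene reads, and 3 reads are worth 3.00 to 13.3 CPM. Shared replicate numbers gave no sign of pairing. The mean correlation of deviations was -0.004 for the same number (3 of 21 pairs over 0.1) and 0.001 for other numbers (14 of 63). Such a mean cannot exclude that some samples shared an animal or a processing step.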

Additional observations from a re-analysis of the deposited data

Results flagged for a closer look

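One value of a marker stood apart within its group. Lsp1 in wild-type sham library 1 was at 151.9 CPM, with the other 3 wild-type sham libraries at 120 to 122 CPM, a gap of 0.94 of the whole range. It was 1 of 21 groups of 4 libraries checked, and chance sets apart about 1 in 20. No cause was tested.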

How the results depend on the processing

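No marker passed under edgeR with RLE size factors, DESeq2, limma voom, the stricter filter, length offsets, the replicate block, protein-coding transcripts alone or without any 1 of the 15 libraries. Markers called in wild type numbered 2 with no filter, 1 on log2(TPM + 1) and 1 on log2(TPM + 0.1), and in Apoe-/- against wild-type microbead 1 on log2(TPM + 1); the cause was not tested. With 3 or 4 libraries a group and 26 markers below the filter, a change in these 26 was not tested.

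Genes called in wild type (13) numbered 36 with DESeq2, 7 with limma voom, 124 with no filter, 5 with the stricter filter of 10 reads in 7 libraries, 84 on log2(TPM + 1), 20 on log2(TPM + 0.1) and 4 on protein-coding transcripts. They ran from 0 to 29 when 1 library was left out: 1, 4, 2 and 4 without wild-type sham libraries 1 to 4, 29 and 0 without wild-type microbead libraries 1 and 2, and 28 without Apoe-/- sham library 2. Genes called in Apoe-/- against wild-type microbead (3) numbered 26 with DESeq2, 1 with limma voom, 73 with no filter, 1 with the stricter filter, 186 on log2(TPM + 1), 6 on log2(TPM + 0.1) and 1 on protein-coding transcripts, and 1 to 7 leaving out 1 library. With no filter 37 genes passed in Apoe-/-, 45 for the difference of responses and 41 in sham, and 5 for the difference on log2(TPM + 1). The replicate block called 7 genes in wild type and 1 in Apoe-/- against wild-type microbead; Ms4a7 was at 1.86 (adjusted p = 0.349) and Fn1 at 1.81 (0.384) in wild type under the block, and no marker was called. The numbers pair no samples in the labels.

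Some small fold changes reversed. On log2(TPM + 1) they were 0.66 for Lsp1 in wild type, -0.030 for Fn1 in Apoe-/-, -0.19 for Stab1 and -0.079 for Cxcr2 in the difference, -0.32 for Cxcr2 in sham, and -0.47 for Stab1 and -0.40 for Cxcr2 between microbead groups. On log2(TPM + 0.1) they were 0.68 for Lsp1 in wild type, -0.22 for Stab1 and -0.38 for Cxcr2 in the difference, -0.72 for Cxcr2 in sham, and -0.51 for Stab1 and -1.10 for Cxcr2 between microbead groups. With limma voom Lsp1 was at 0.034 in the difference and Cxcr2 at -1.04 in sham and -0.57 between microbead groups. Fn1 in Apoe-/- was -0.44 with length offsets, Lsp1 in the difference 0.057 with no filter, and on protein-coding transcripts Stab1 was 0.093 in Apoe-/- and Fn1 -0.14 in sham. Leaving out 1 library gave -0.29 to 0.63 for Fn1, -0.32 to 0.000653 for Stab1 and -1.43 to 0.10 for Cxcr2 in Apoe-/-, -0.27 to 0.17 for Lsp1 and -0.31 to 1.21 for Cxcr2 in the difference, -0.72 to 0.76 for Cxcr2 in sham and -0.043 to 1.00 for Cxcr2 between microbead groups. The cause of these reversals was not tested.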
